A study of Solanum lycopersicum with 4 samples.

Results

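Transcripts of 5 genes of the KNOX system were followed in shoot meristems of tomato (Solanum lycopersicum): the KNOX genes TKN1 (Solyc04g077210.2.1, chromosome 4) and TKN2 (Solyc02g081120.2.1, chromosome 2), and the genes of 3 proteins that modify KNOX activity, BIPINNATA (Solyc02g089940.2.1, chromosome 2), PETROSELINUM (Solyc06g072480.1.1, chromosome 6, also called TKD1) and CLAUSA (Solyc04g008480.1.1, chromosome 4). They were chosen by identifier, and they are 5 of the 34727 genes listed. RNA came from plants with a mutation in TERMINATING FLOWER (TMF), here called tmf, and from wild-type plants, with 2 biological replicates per genotype; several plants gave the meristems pooled in a replicate. Both genotypes were sampled at the late vegetative stage, 8 days after germination. No source used here gives the tmf allele or the genetic background of the plants.

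KNOX proteins are homeodomain transcription factors. Class I KNOX genes are active in the shoot meristem, where they keep cells undifferentiated. In tomato, unlike in plants with simple leaves, they are active again in young leaf primordia, and their dose there bears on how often the compound leaf divides. KNOX proteins act together with BELL-type homeodomain partners. BIPINNATA is such a BELL-type protein, and its loss makes tomato leaves more divided. PETROSELINUM is a KNOX-like protein that lacks the homeodomain and competes with KNOX proteins for their BELL partner. CLAUSA is a MYB transcription factor that holds back KNOX expression in the tomato leaf.

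The libraries held between 17540331 and 28310492 gene-assigned reads. A level is in normalised reads, meaning reads of the gene per 10000000 reads assigned to any gene. TMF itself had 6.1 and 6.27 normalised reads in the tmf pair and 1238 and 2224 in the wild-type pair, so the libraries separated at this gene as labelled. The stem cell genes WUS and CLV3 were read in all 4 libraries, between 46.7 and 157 for WUS and between 18 and 114 for CLV3. RBCS and CAB genes, markers of green leaf tissue, were read as well. Their sum over 11 identifiers was 18479 in mutant replicate 1, 38265 in mutant replicate 2, and 29770 and 35152 in wild-type replicates 1 and 2. RBCS2 alone supplied between 11347 and 18648.5 in a library. The CAB identifiers ranged in mean over the libraries from 20.1 to 4940. In such bulk samples, fewer cells of a type and less RNA per cell cannot be told apart.

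None of the 5 genes separated the genotypes. At an adjusted p under 0.05 over the 21437 genes tested (limma, log2 of value plus 1), 0 of the 5 were called, where 0.215% of all genes tested were. At an unadjusted p under 0.05 limma again gave 0 of 5, where 6.2% of all genes tested passed. The same count was 0 of 5 in edgeR's quasi-likelihood test on recovered reads, where 6.47% of all genes tested passed, and 2 of 5 in DESeq2 (TKN2 and BIPINNATA), where 5.26% did. Neither tool called a member after adjustment. In each of the 5 genes the libraries of the genotypes overlapped, while 32.8% of all genes tested showed no overlap in one direction or the other. With 2 libraries a genotype the intervals of the log2 fold changes are wide, from -0.70 to 0.67 for TKN1, the narrowest of the 5, so equal levels are not shown.

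**Figure D1:**
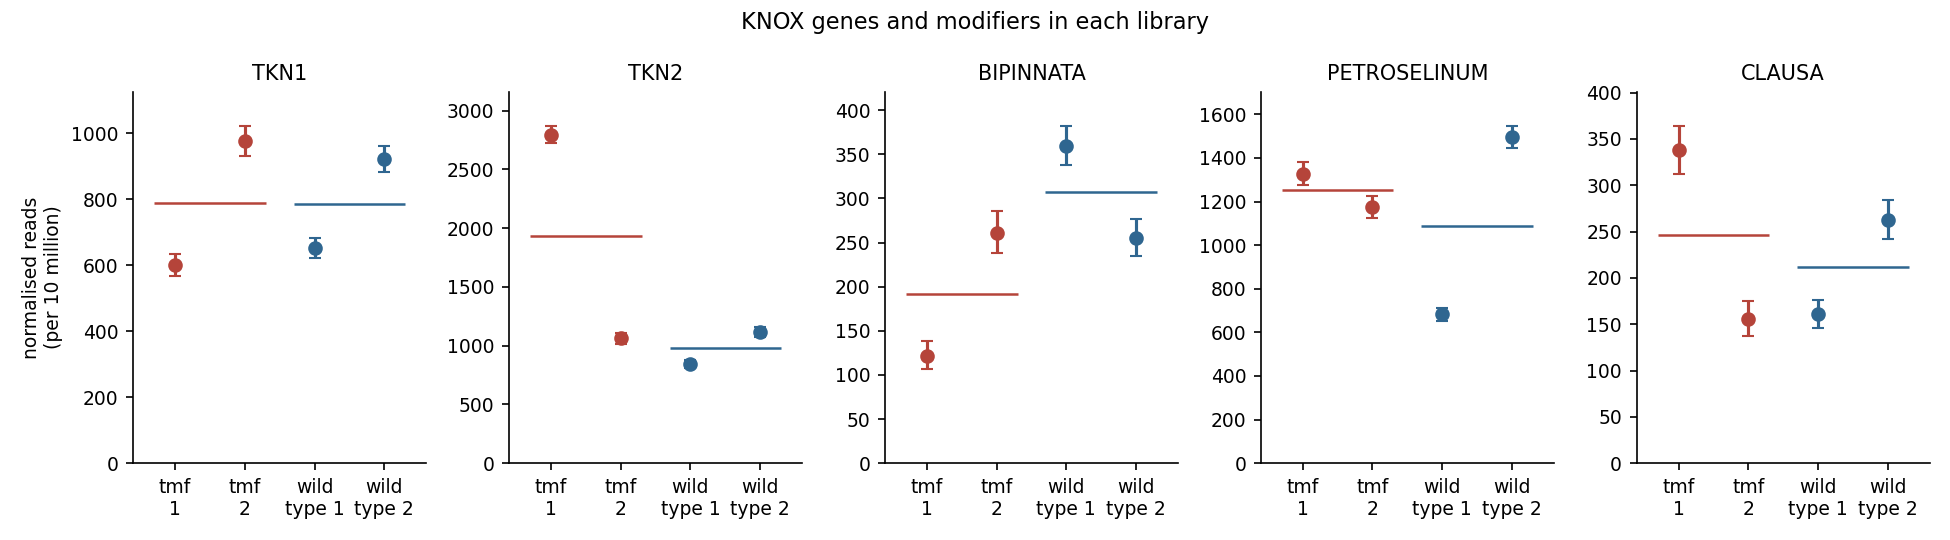
Normalised reads (per 10000000 gene-assigned reads, y axis from 0 in each panel) of the 5 genes in each library, tmf in red and wild type in blue; bars on points are 95% Poisson intervals (counting error only), horizontal lines are genotype means. TKN2 stands at 2797 in mutant replicate 1 and between 841 and 1117 in the other 3 libraries, and in every panel the genotypes overlap.

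TKN2, the class I KNOX gene also known as LeT6, reached 2797 normalised reads in mutant replicate 1 and 1062 in mutant replicate 2, beside 841 and 1117 in wild-type replicates 1 and 2. Mutant replicate 1 alone was high, and mutant replicate 2 lay between the wild-type libraries. The log2 fold change was 0.83 ± 0.42 (SE) with a 95% interval of -0.14 to 1.8 (limma adjusted p = 0.86). Leaving out mutant replicate 1 gave 0.13, and leaving out mutant replicate 2 gave 1.53. The level in mutant replicate 1 was 2.63 times that in mutant replicate 2 (95% exact interval 2.5 to 2.78, for counting error), and of the 12258 genes whose mean was 100 or more, 1.51% differed as much or more between the same libraries.

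TKN1, the other class I gene of the pair, had 600.3 and 975 normalised reads in the tmf pair, beside 651 and 923 in the wild-type pair. Each genotype had one library near the lower value and one near the upper, and the means were 788 ± 265 and 787 ± 192 (SD, n = 2 each). The log2 fold change was -0.02 ± 0.30 (SE) with a 95% interval of -0.70 to 0.67 (limma adjusted p = 0.999), and its sign turned with the library left out (0.33 without mutant replicate 1, 0.23 without wild-type replicate 2). TKN1 was thus lower in mutant replicate 1 than in mutant replicate 2, where TKN2 was higher. The TKN2 to TKN1 read ratio was 4.66 in mutant replicate 1, against 1.09, 1.29 and 1.21 in mutant replicate 2 and wild-type replicates 1 and 2.

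Among the modifiers, BIPINNATA had 121 and 261 normalised reads in the tmf pair, beside 359.6 and 255 in the wild-type pair. Its lowest value was in mutant replicate 1 and its highest in wild-type replicate 1, while the counting intervals of the other 2 libraries overlapped. The log2 fold change was -0.76 ± 0.37 (SE) with a 95% interval of -1.63 to 0.10 (limma adjusted p = 0.85), which moved to -0.21 with mutant replicate 1 left out and to -1.31 with mutant replicate 2 left out. Mutant replicate 2 had 2.15 times the level of mutant replicate 1 (95% exact interval 1.83 to 2.52), a gap reached by 3.1% of the genes with a mean of at least 100.

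PETROSELINUM had 1328 and 1174 normalised reads in the tmf pair, beside 683 and 1497 in the wild-type pair. The mutant libraries lay close together, inside the range of the wild type. Here the spread was in the wild type, where replicate 2 had 2.19 times the level of replicate 1 (95% exact interval 2.07 to 2.32), a gap reached by 2.05% of the genes with a mean of at least 100. The log2 fold change was 0.30 ± 0.35 (SE) with a 95% interval of -0.51 to 1.12 (limma adjusted p = 0.999). Leaving out wild-type replicate 2 gave 0.87, and leaving out wild-type replicate 1 turned the sign to -0.26.

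CLAUSA had 337 and 156 normalised reads in the tmf pair, beside 161 and 262 in the wild-type pair. Mutant replicate 1 was again the highest library, with wild-type replicate 2 next and the remaining 2 libraries at nearly the same level. The log2 fold change was 0.16 ± 0.40 (SE) with a 95% interval of -0.76 to 1.08 (limma adjusted p = 0.999), turning to -0.40 without mutant replicate 1 and -0.19 without wild-type replicate 1. Between the mutant libraries CLAUSA differed 2.17-fold (95% exact interval 1.88 to 2.51), a gap reached by 2.99% of the genes with a mean of at least 100.

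Mutant replicate 1 thus held an extreme value of 4 of the 5 genes, the highest of TKN2 and CLAUSA and the lowest of TKN1 and BIPINNATA. Over the 12258 genes with a mean of at least 100, this library was the highest in 23.2% and the lowest in 32.4%. Wild-type replicate 1 was extreme more often, the highest in 32.2% and the lowest in 32.0%. It held the highest value of BIPINNATA and the lowest of TKN2 and PETROSELINUM. The shoot meristem markers were highest in mutant replicate 1: WUS had 157 normalised reads in replicate 1 of the mutant and 46.7 in replicate 2, and CLV3 had 114 and 25.7. They varied between the wild-type libraries as well, where WUS had 51.9 and 92.7 and CLV3 had 18 and 66.6 in replicates 1 and 2. The 5 floral markers (AN, FA, FUL2, TM5 and EJ2) were each higher in replicate 1 than in replicate 2 of the mutant. Each was higher in both of these than in either wild-type library, where 20.7% of all genes tested were. FA, the most abundant, had 3798 and 2388 normalised reads in the tmf pair, beside 1372 and 1399 in the wild-type pair, while AN had 435 and 46.7 beside 0.353 and 2.61. EJ2 and TM5 passed over all genes tested (limma adjusted p = 0.0012 and 0.027), where 0.215% of all genes did in either direction. EJ2 and TM5 were higher in the mutant, although both genotypes carry the same stage label. All 11 green tissue markers were lower in replicate 1 than in replicate 2 of the mutant, as were 60% of all genes tested, with a median log2 difference of -1.25 for the markers and -0.11 for all genes tested. The part of these tissue markers in the values of the 5 genes was not tested.

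**Figure D2:**
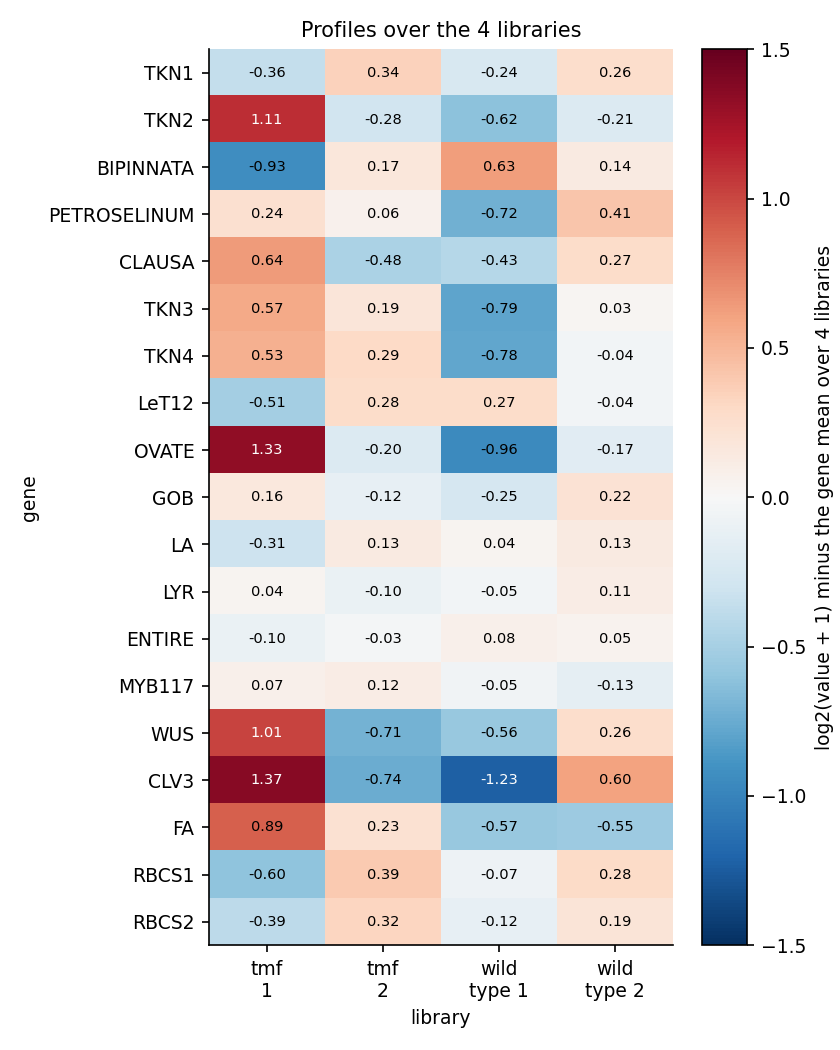
Each cell is log2(value + 1) minus the gene's mean over the 4 libraries (columns). Rows are the KNOX genes and modifiers, pathway genes with a name, shoot meristem markers (WUS, CLV3), the floral marker FA and green tissue markers (RBCS1, RBCS2). Red is above and blue below the gene's mean. Mutant replicate 1 is at 1.11 for TKN2, 1.01 for WUS and 1.37 for CLV3, and at -0.93 for BIPINNATA and -0.60 for RBCS1.

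The balance between KNOX genes and modifiers was measured as the ratio of reads of each KNOX gene to each modifier within a library, which gives 6 ratios. No transcript lengths were at hand, so a ratio is read only across libraries and its level says nothing of which gene is more abundant per length. The exact two-sided permutation test over 2 against 2 libraries has 6 arrangements, and 0.333 is the smallest p it allows, so no ratio could pass 0.05, before or after adjustment over the 6. Differences are therefore given by value and by overlap, on the log2 scale with 1 added to each level.

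Of the 6 ratios, TKN2 to CLAUSA had the smallest SD in the mutant and the second smallest in the wild type, although both genes varied between libraries. It was 8.29 and 6.82 in the tmf pair, beside 5.23 and 4.26 in the wild-type pair. The genotypes did not overlap, and 6.41% of all tested genes likewise had a ratio to CLAUSA that was higher in both mutant libraries. The mean log2 ratios were 2.9 ± 0.20 for tmf and 2.23 ± 0.21 for wild type (SD, n = 2 each), a difference of 0.67 or 1.59-fold (exact permutation p = 0.333). The difference stayed between 0.52 and 0.82 when any 1 library was left out.

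TKN1 to BIPINNATA was 4.94 and 3.74 in the tmf pair, beside 1.81 and 3.61 in the wild-type pair. This ratio also did not overlap, with a log2 difference of 0.74 (exact permutation p = 0.333), but 51% of all tested genes had a ratio to BIPINNATA that was higher in both mutant libraries, so the separation is near the background. It rested on wild-type replicate 1, without which the difference was 0.25.

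TKN2 to BIPINNATA spanned the widest range of the 6, with 23 and 4.07 in the tmf pair beside 2.34 and 4.37 in the wild-type pair. Mutant replicate 1 stood far above the rest, and mutant replicate 2 lay between the wild-type libraries. The log2 difference of 1.59 (exact permutation p = 0.667) became 0.35 with mutant replicate 1 left out and 2.84 with mutant replicate 2 left out.

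The remaining 3 ratios overlapped between genotypes; of all tested genes, 5.81% had a ratio to PETROSELINUM that was higher and 7.05% one that was lower in both mutant libraries. TKN2 to PETROSELINUM was 2.11 and 0.904 in the tmf pair, beside 1.23 and 0.746 in the wild-type pair, a log2 difference of 0.53 (exact permutation p = 0.667) that became -0.08 without mutant replicate 1. TKN1 to PETROSELINUM was 0.452 and 0.831 against 0.954 and 0.616, a log2 difference of -0.32 (exact permutation p = 0.667). TKN1 to CLAUSA was 1.78 and 6.27 against 4.05 and 3.52, so the mutant libraries lay on either side of the wild type, with a log2 difference of -0.18 (exact permutation p = 1). Both TKN1 ratios turned positive without mutant replicate 1, at 0.12 for PETROSELINUM and 0.73 for CLAUSA.

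**Figure D3:**
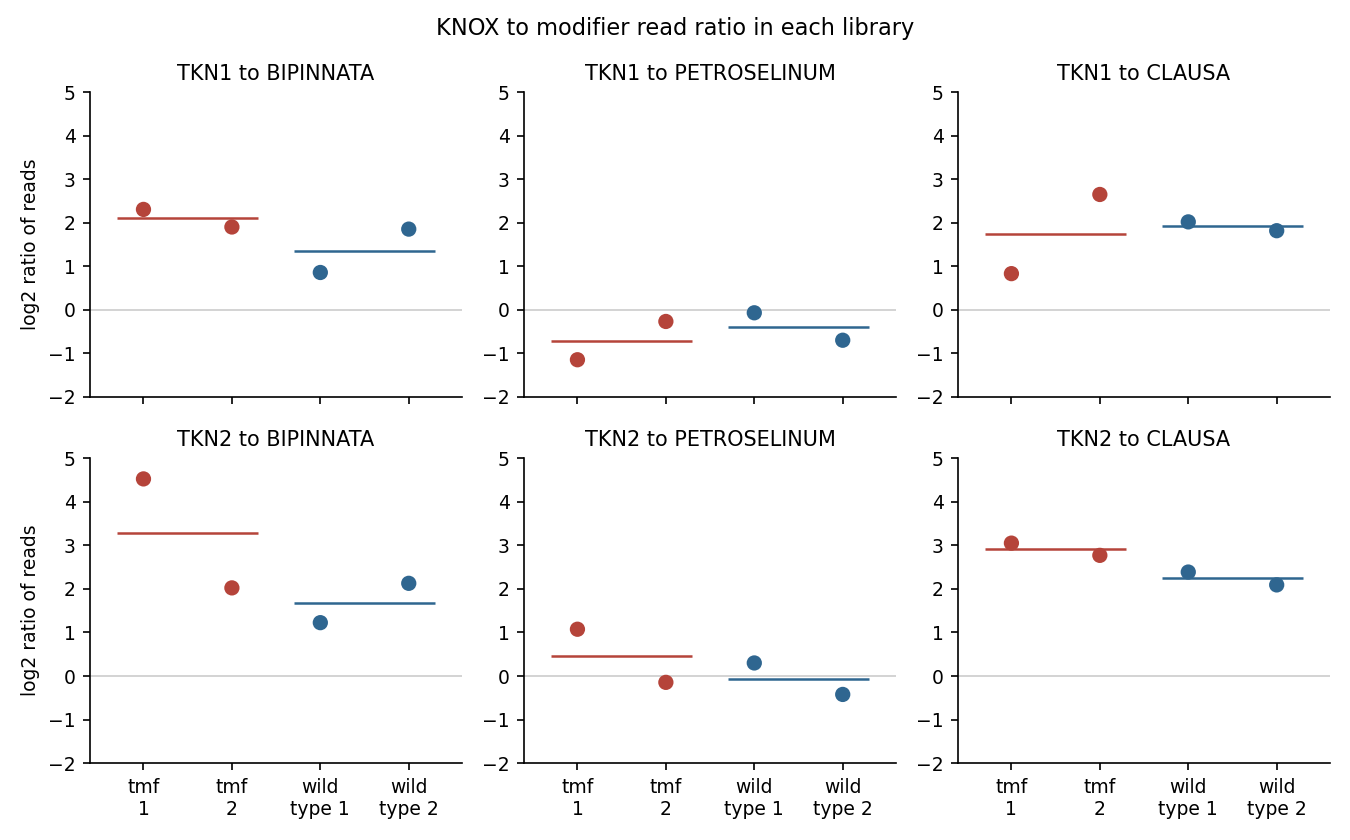
Log2 ratio of reads (y axis, no scaling for length) of TKN1 (top row) and TKN2 (bottom row) to each modifier in each library, tmf in red and wild type in blue, with lines at genotype means. TKN2 to CLAUSA is higher in both mutant libraries with little spread in either genotype, and TKN2 to BIPINNATA is set apart by mutant replicate 1 at a ratio of 23.

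With TKN1 and TKN2 summed, the KNOX to modifier ratio was 1.9 and 1.28 in the tmf pair, beside 1.24 and 1.01 in the wild-type pair, when the 3 modifiers were summed too. The mutant libraries lay above the wild-type libraries, the nearest pair being mutant replicate 2 and wild-type replicate 1, and 12.4% of the tested genes that are not members were likewise higher in their ratio to the summed modifiers. The log2 difference was 0.48 (exact permutation p = 0.333), with SDs of 0.40 for tmf and 0.21 for wild type (n = 2 each). It was 0.19 with mutant replicate 1 left out and was 0.76 with mutant replicate 2 left out. PETROSELINUM supplied most reads of the modifier sum in each library. TKN2 had far more normalised reads than TKN1 in mutant replicate 1 (2797 against 600). The 2 genes were closer in mutant replicate 2 (1062 against 975) and in the wild-type libraries. The ratio of TKN2 to PETROSELINUM alone overlapped between the genotypes.

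Of the wider pathway, 19 identifiers were listed and 17 tested, and none passed over all genes tested in limma, in edgeR's quasi-likelihood test or in DESeq2. At an unadjusted p under 0.05, limma gave 2 of the 17 (TKN3 and TKN4) and edgeR's quasi-likelihood test 2 (OVATE and TKN4). DESeq2 gave 3 (OVATE, TKN3 and TKN4). Of all genes tested, 6.2%, 6.47% and 5.26% passed in limma, edgeR and DESeq2. The median log2 fold change of the 17 was 0.04, as it was over all 21437 genes tested (0.04). The genotypes did not overlap in 7 of them, 4 higher and 3 lower in the mutant, where 20.7% and 12.1% of all genes tested did so.

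The other class I KNOX genes, TKN3 (Solyc05g005090.2.1) and TKN4 (Solyc01g100510.2.1), were among those without overlap. TKN3 had 836 and 639 normalised reads in the tmf pair beside 325 and 573 in the wild-type pair, and TKN4 had 513 and 435 beside 206 and 344. Each gene was higher in the mutant libraries, with wild-type replicate 1 the lowest. For TKN3 the counting intervals of mutant replicate 2 and wild-type replicate 2 overlapped (602.2 to 677.6 and 542.2 to 604.5). The 5 floral markers had the same order of libraries, from mutant replicate 1 down through mutant replicate 2 and wild-type replicate 2 to wild-type replicate 1, and their part in the values of TKN3 and TKN4 was not tested. The log2 fold changes were 0.76 ± 0.31 and 0.83 ± 0.29 (SE; limma adjusted p = 0.74 and 0.62), so neither passed. Leaving out any 1 library gave 0.35 to 1.17 for TKN3 and 0.46 to 1.2 for TKN4. Between the mutant libraries TKN3 and TKN4 differed 1.31-fold and 1.18-fold, against 2.63-fold for TKN2.

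Class II KNOX genes, which in Arabidopsis promote differentiation and act opposite to class I, were listed with 4 identifiers, of which 3 were tested. LeT12 (Solyc07g007120.2.1), the one with a name in the reference table, had 575 and 994 normalised reads in the tmf pair, beside 989.7 and 799 in the wild-type pair. Its genotypes overlapped, and limma gave a log2 fold change of -0.23 with an SE of 0.30 (adjusted p = 0.999).

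**Figure D4:**
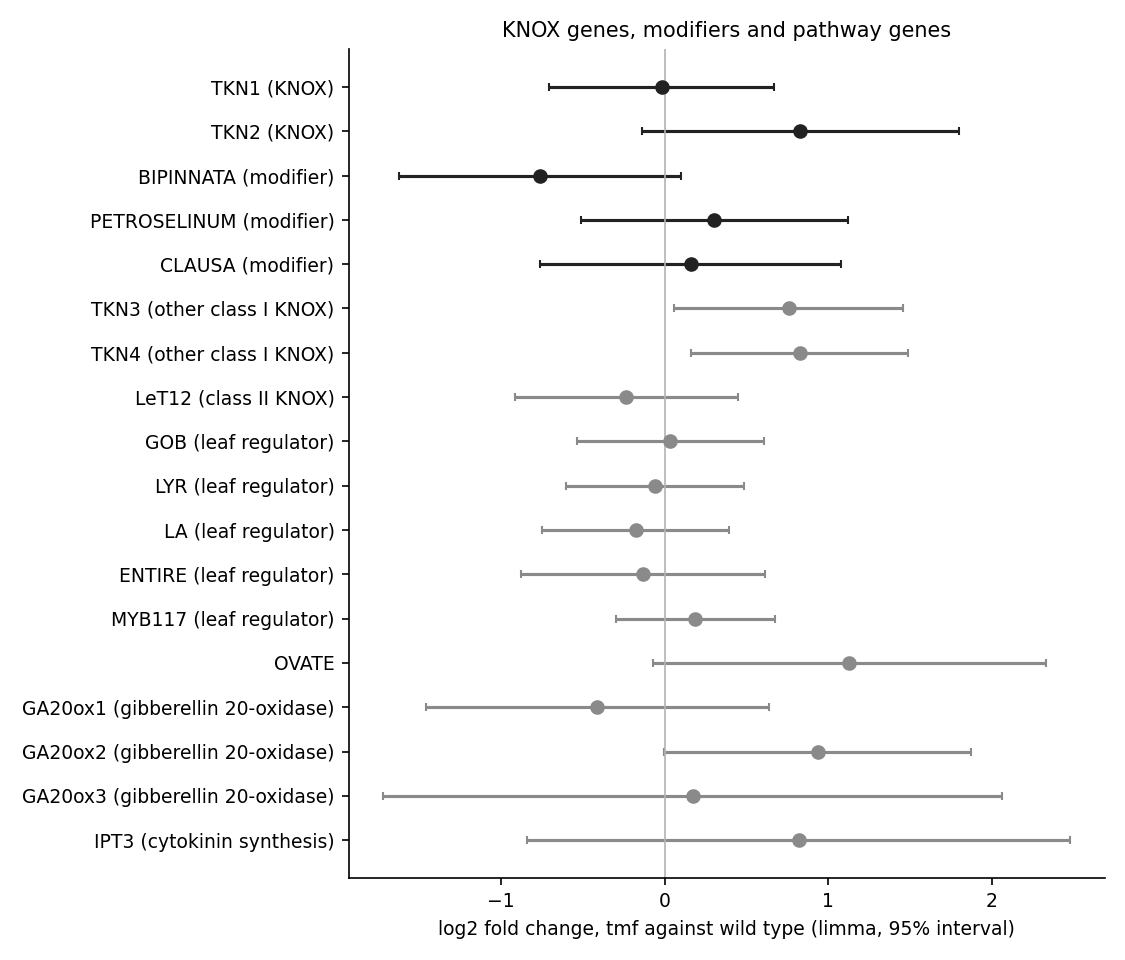
Log2 fold change of tmf against wild type (x axis, limma, with 95% intervals not adjusted for the number of genes) for the 5 KNOX genes and modifiers (black) and the named pathway genes that were tested (grey). All 5 black intervals include 0, and those of TKN3 (0.06 to 1.46) and TKN4 (0.16 to 1.49) do not, although neither gene passed over all genes tested.

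OVATE (Solyc02g085500.2.1) encodes a protein of a family whose Arabidopsis members bind KNOX and BELL proteins, and it is best known for its role in fruit shape. It had 191 and 65 normalised reads in the tmf pair, beside 38.1 and 66.6 in the wild-type pair, so mutant replicate 1 was high and mutant replicate 2 lay between the wild-type libraries, as for TKN2. For OVATE limma gave a log2 fold change of 1.13 with an SE of 0.52 (adjusted p = 0.83), or 0.36 with mutant replicate 1 left out.

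Regulators of leaf dissection numbered 7, all tested, with none called and a median log2 fold change of -0.06. GOB, a NAC-type boundary gene that separates leaflets, had a log2 fold change of 0.04 ± 0.25. LA, a TCP gene that drives leaf maturation, had -0.18 ± 0.25, and LYR, a JAGGED-type gene of leaf margin growth, had -0.06 ± 0.24. ENTIRE, the auxin-response repressor that restrains blade growth between leaflets, had -0.13 ± 0.32, and MYB117, a MYB gene of leaflet formation, had 0.19 ± 0.21 (SE in each case; limma adjusted p = 0.999). The largest fold change of the list in either direction belonged to Solyc06g074910.2.1, picked out here after its values were seen. This identifier has no name in the reference table and was the least abundant of the 7. It had 22.4 and 7.41 normalised reads in the tmf pair, beside 24 and 41.3 in the wild-type pair, a log2 fold change of -1.22 with an SE of 0.57 (limma adjusted p = 0.84). The genotypes did not overlap in 3 of the 7, 1 higher and 2 lower in the mutant. Of all genes tested, 20.7% were higher and 12.1% lower without overlap. For the higher one, MYB117, and for Solyc06g074910.2.1 the nearest libraries had overlapping counting intervals. The sign for GOB turned negative with TMM and median-of-ratios scaling, in edgeR and in DESeq2.

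Hormone genes that KNOX proteins are known to act on in other plants were read at low levels or hardly at all. Gibberellin 20-oxidases make gibberellin precursors and are held down by KNOX proteins in tobacco. GA20ox1 had 11.7 and 9.69 normalised reads in the tmf pair, beside 12.4 and 17 in the wild-type pair, and GA20ox2 had 36.6 and 27.4 beside 17 and 15.2. Neither passed (limma adjusted p = 0.999 and 0.81), and the nearest libraries of the genotypes were within counting error for GA20ox1, with 95% Poisson intervals of 7.41 to 17.5 and 8.61 to 17.2. GA20ox1 was lower in both mutant libraries than in either wild-type library, and GA20ox2 was higher. Of all genes tested, 12.1% were lower and 20.7% higher in this way. The nearest libraries of GA20ox2, mutant replicate 2 and wild-type replicate 1, also had overlapping 95% Poisson intervals (20.2 to 36.3 and 12.5 to 22.5). GA20ox3 had at most 7 reads in a library. For cytokinin synthesis, IPT3 had between 2 and 12 reads in a library, and IPT4 had 2 reads in wild-type replicate 2 and none in the others, where 3 counts correspond to 1.06 to 1.71 normalised reads.

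Likeness of profile was measured as the root mean square difference of mean-centred log2 levels over the 4 libraries, among 22 named genes of the lists. OVATE was nearest to TKN2 at 0.21, a distance that 0.383% of all tested genes reached, and WUS was next at 0.32 (1.93%). For CLAUSA the nearest was WUS at 0.23 (2.24% of tested genes), followed by GOB at 0.31 (6.87%). BIPINNATA was nearest to LeT12 at 0.29 (3.56%) and then to LA at 0.43 (14.6%). TKN1 was nearest to LA at 0.19 (5.82%) and then to ENTIRE at 0.29, a distance that 24.7% of tested genes reached. PETROSELINUM was nearest to TKN3 at 0.26 (9.02%) and then to GOB at 0.27 (9.98%). With 4 libraries these distances describe the samples only.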

How the data were processed

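Tomato shoot meristem mRNA was sequenced from 2 tmf and 2 wild-type pools. Bowtie 0.12.5 and edgeR are named in the submitters' processing notes; no source used here gives the genome build, annotation, counter, strandedness or handling of multiply matching reads, so KNOX relatives may share reads. Deposited values are normalised signal per gene: the authors scaled read counts so that each library sums to 10000000. In each library 100% of values were whole multiples of the smallest (tolerance 1e-06), which returned the reads. Log2(value + 1) was tested with limma 3.58.1 (R 4.3.3, trend option), for genes with a mean of at least 1, adjusted by Benjamini and Hochberg over 21437 genes. Fold changes on this scale understate low genes. Alternatives were edgeR 4.0.16 and DESeq2 1.42.0 on recovered reads, other scaling, filters and pseudocounts, blocks and left-out libraries. In simulated data with 21437 genes limma called 99 of 100 genes changed 4-fold and 100 of 100 changed 16-fold, with 20 false calls. The changed genes had levels of at least 100. Simulated spread came from the trend of these libraries, so genes that vary more than the trend are not covered. In the real libraries AN and FUL2, with log2 fold changes of 6.03 and 2.93, were not called (limma adjusted p = 0.070 and 0.055).

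Members and lists were chosen with earlier results of these data known. Named genes were the 5 members, the pathway genes with a name, and the 2 list genes nearest each member in profile with a mean of at least 10. A name was printed where the reference table (assembly SLM_r2.1) has it on the chromosome the identifier states. This held for 3 of 5 members and 24 of 37 other identifiers. BIPINNATA, CLAUSA and TMF rest on published nomenclature. The CAB identifiers have no matching entry in the reference table, so CAB is used only as a family label. BELL relatives other than BIPINNATA could not be paired with names and are not analysed here. Replicates are separate pools; nothing states shared batches. Genotype was the only term, as planned, and a replicate block was run as an alternative. Deviations of same-numbered libraries correlated at -0.109. Intervals on counts are 95% and cover counting error only.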

Additional observations from a re-analysis of the deposited data

How the results depend on the processing

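No member passed under any of 14 alternatives; the smallest adjusted p was 0.18 (limma, TKN2 without mutant replicate 2). Of 70 alternative member fold changes, 65 kept their sign, and all 5 that turned came from leaving out a library. The ranges over left-out libraries were -0.37 to 0.33 for TKN1, 0.13 to 1.53 for TKN2, -1.31 to -0.21 for BIPINNATA, -0.26 to 0.87 for PETROSELINUM and -0.40 to 0.71 for CLAUSA. Among pathway genes they were -0.63 to 0.16 for LeT12, -0.20 to 0.27 for GOB, -0.14 to 0.016 for LYR, -0.39 to 0.044 for LA and -0.046 to 1.33 for GA20ox3. GOB also turned to -0.030 in edgeR, -0.032 with TMM scaling, -0.017 in DESeq2 and -0.015 with median-of-ratios scaling, and GA20ox3 to -0.74 with a pseudocount of 0.1. Ratio differences ranged from -0.76 to 0.12 for TKN1 to PETROSELINUM, -1.08 to 0.73 for TKN1 to CLAUSA and -0.084 to 1.13 for TKN2 to PETROSELINUM; with TKN1 and TKN2 summed, the first 2 became 0.29 and 0.43. Ratios per length were not run, as no lengths were at hand.

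The 46 genes called over all genes became 214 with DESeq2, 368 with the replicate block, 219 with the crossed replicate block (chosen after seeing the data, as same-numbered deviations correlated at -0.109), 19 with a mean of at least 10, and 6 to 61 with 1 library left out (the count was 6 whichever wild-type library was dropped). In those fits fewer samples remain and the spread of a lone library is taken from the other genotype; the cause of the other changes was not tested. The replicate block changed no call of a member or named pathway gene and, by construction, no ratio difference. Every member had at least 239 reads in each library, and in each genotype its replicates differed by more than counting error (the 95% exact interval of their ratio left out 1).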
